A study of Tuber melanosporum with 9 samples.

Results

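DNA transposons longer than 500 bp in the genome of the black truffle Tuber melanosporum were described by their cytosine methylation and their RNA. They were taken from the deposited repeat annotation by class and length, and the rule used no methylation or RNA value, although it was written with earlier results of these data known. The annotation listed 45028 repeats, of which 27168 had a class and 8599 belonged to a class of DNA transposon. Of these, 5166 exceeded 500 bp, and 3433 did not. The 5166 elements made up 390 families, spanned 6491537 bp in all, and had a median length of 1128.5 bp.

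The 9 libraries covered 5 conditions, with 1 sample for each condition and assay, so no difference between conditions had a replicate check and none was tested. Genomic DNA treated with bisulfite, which leaves methylated cytosines as C and turns the others into T, was sequenced from a mature field-collected fruitbody (FB, strain not stated), from free-living mycelium of strain Mel28 on malt agar (FLM), from ectomycorrhizal root tips on hazel that still held host cells (ECM), and from Mel28 mycelium in synthetic liquid medium at 23 °C with water added (untreated) or with 100 µM 5-azacytidine (treated). 5-azacytidine is a cytidine analogue that traps DNA methyltransferases; it was added every 5 days for 45 days, the last time 24 h before harvest. RNA, made into libraries from total RNA, was sequenced from FB, FLM, untreated and treated, not from ECM. Life stage, strain and growth conditions differ together between FB and the mycelia and cannot be told apart, whereas treated and untreated shared the strain and the medium. According to the paper, the liquid cultures also had shorter bisulfite reads and another DNA extraction than FB, FLM and ECM. Differences of the liquid cultures from FB or FLM cannot be told apart from these.

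The mean depth per listed cytosine was 20.1 reads in FB, 19.9 in FLM, 7.35 in untreated, 8.64 in treated and 1.35 in ECM. The RNA libraries held between 21802480 and 23816308 reads on genes. A methylation level is given as the mean over the cytosines of an element of the percentage of reads that kept the C, over cytosines with at least 4 reads (1 in ECM) and elements with at least 4 such cytosines. CG, CHG and CHH contexts, where H is A, C or T, were kept apart. Over annotated genes the mean CG level lay between 0.810 and 1.10% in the 5 libraries.

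DNA transposons move as DNA, most of them by a transposase that cuts the element at its terminal inverted repeats (TIRs) and inserts it elsewhere. The superfamilies Tc1/Mariner, hAT, PiggyBac, PIF-Harbinger and Mutator are told apart by their transposase, Helitrons are copied through a rolling circle, and MITEs are short elements that hold no transposase of their own. In many fungi, cytosine methylation lies mainly on transposable elements and less on genes. No sequences are shown, as the genome sequence was not used here.

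Tc1/Mariner made up 3640 of the 5166 elements, in 246 families. Elements with inverted repeats but no superfamily (class TIR) followed with 894, and then hAT with 261, PiggyBac with 152, PIF-Harbinger with 105, Mutator with 63, Helitron with 50 and MITE with 1. The annotation marked 2072 as complete and 3022 as incomplete. An annotated gene was overlapped by 48 elements, a further 427 lay within 1 kb of one, 4458 lay farther away, and 233 were on scaffolds that carry no annotated gene. Gene coordinates were known for 7420 of 7496 genes.

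Most of the elements were methylated at CG in most reads, and a minority had low levels. The median CG level was 79.9% in FB (exact 95% interval of the median 79.1 to 80.6, 4967 elements), 80.4% in FLM, 82.4% in untreated and 82.9% in treated. With at least 10 reads per cytosine, untreated was below FB, at 76.9% against 78.4%. In FB, 2469 elements (49.7%) were above 80% and 754 (15.2%) below 10%, and the remaining 1744 lay between. The share below 10% was 14.7% in FLM, 14.9% in untreated and 14.8% in treated. Over all classified transposable elements (TEs) the same share was 14.7% (FB), 14% (FLM), 14.3% (untreated) and 14.1% (treated). In this share the longer DNA transposons were close to all classified TEs, a set that includes them and elements of every class and length. Above 80% in FB were 49.7% of them against 59.3% of all classified TEs, and between 10 and 80% were 35.1% against 26.0%. The FB median over all classified TEs was 83.0%. Such intervals are for a median over elements of 1 library, taken as independent, and do not cover differences between samples. They are not the spread of the elements: the middle 50% of them in FB lay from 48.7 to 90.2%.

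Other long elements and short DNA transposons had different levels from the same libraries. In FB, the median was 84.6% for 10137 Gypsy elements longer than 500 bp, LTR retrotransposons, and 1.94% of them were below 10%. For LINE and I elements longer than 500 bp, retrotransposons without LTRs, the values were 84.9% and 1.87%. DNA transposons up to 500 bp had a median of 26.3%, with 46.8% of 2695 elements below 10%. There was no step at the length threshold itself. The 73 elements no more than 10 bp above it had a median of 75.5% in FB and 33.8% of those measured below 10%, and the 80 DNA transposons within 10 bp below it had 72.8% and 30.4%.

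In ECM the median CG level was 60.5% over 3921 elements, and 22.1% were below 10% against 15.9% of all classified TEs. At 1.35 reads per cytosine the median moved with the read minimum. With at least 2 reads the median CG level was 28.8%, over the 1601 elements that could still be measured. ECM levels and counts below therefore rest on few reads per cytosine, with a minimum of 1 unless stated.

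Methylation outside CG was lower and partial. The median CHG level was 18.4% (FB), 17.1% (FLM), 18.1% (untreated) and 15.2% (treated). For CHH it was 20.0%, 19.9%, 21.3% and 17.8% in the same order. Elements high in CG were also high in these contexts, with a Spearman correlation over elements of 0.704 between CG and CHG in FB and 0.715 between CG and CHH, which share the library and its depth. Among non-CG cytosines the level differed by the following base. The FB medians were 27.8% for CAH, 21.6% for CCH and 10.8% for CTH, and 22.3% for CAG, 13.4% for CCG and 13.95% for CTG. The order CAH over CCH over CTH held in all 4 well-covered libraries.

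The levels of the cytosines that face each other on the strands were close at CG sites and not at CAG/CTG sites. Across 60556 CG pairs with at least 10 reads on each strand in FB, the levels of the strands had a Pearson r of 0.984, and where a strand was above 50% the other one was too in 97.9% of pairs. Across 112579 CAG/CTG pairs the r was 0.162, and both strands were above 50% in 4.58% of the 11518 pairs with either above 50%. FLM had 96.4% for CG and 2.41% for CAG/CTG.

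Classes differed in their CG level. Helitrons had an FB median of 85.4% and an FLM median of 87.1%, Mutator 84.3% and 87.5%, PIF-Harbinger 83.4% and 84.1%, and PiggyBac 83.5% and 83.0%. Tc1/Mariner stood at 80.6% in both. TIR elements had 78.2% and 81.5%, with 26.7% of them below 10% in FB against 11.7% of Tc1/Mariner. The hAT elements were the least methylated class with more than 1 element, at 37.3% (FB), 44.8% (FLM), 51.4% (untreated) and 51.3% (treated), with 31.9% below 10% in FB. The intervals of the class medians in FB were 28.2 to 47.8 for hAT and 79.9 to 81.6 for Tc1/Mariner. They take elements as independent, but the 261 hAT elements came from 18 families and the 3640 of Tc1/Mariner from 246. Copies of a family share their sequence, so these intervals can be too narrow, and the difference between the classes was not tested. The single MITE, 535 bp long, had 0.529% in FB and 0.548% in FLM.

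**Figure D1:**
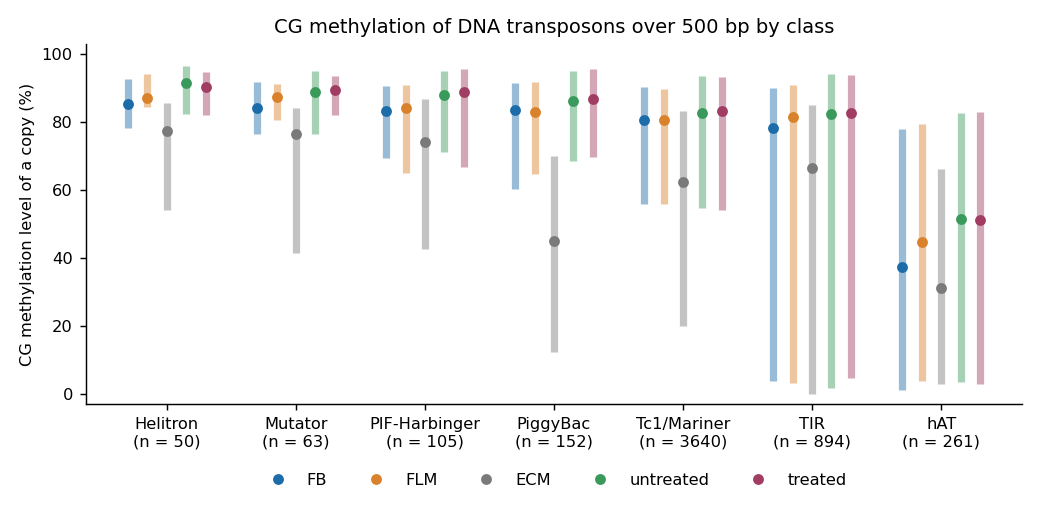
CG methylation level (%) of DNA transposons longer than 500 bp by class and library (points: medians; bars: the middle 50% of elements; n: elements of the class). The single MITE is left out. hAT lies at 37.3% in FB and 44.8% in FLM.

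The share of elements with low CG levels differed with length, and it was not highest near genes. Below 10% CG in FB were 22.1% of the elements up to 1000 bp, 9.40% of those over 1000 to 1500 bp, 11.5% of those over 1500 to 2000 bp and 11.1% of the longer ones. Elements 1 to 10 kb from a gene had a median of 83.6% in FB, and those within 1 kb had 65.3%. In FLM these medians were 84.1% and 58.3%. The share below 10% was 14.6% within 1 kb and 10.5% at 1 to 10 kb in FB, and 57.5% and 32.7% lay between 10 and 80%. Beyond 10 kb the median was 80.02%, with 16.8% below 10% and 33.1% between. Elements on scaffolds with no annotated gene had a median of 61.8%, and 33.0% were below 10%.

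The intermediate levels near genes had a direction. Each element was cut at its midpoint, and the side facing the nearest gene was compared with the side facing away. In 328 elements within 1 kb of a gene with enough cytosines on both sides in FB, the median CG level was 55.7% on the gene side and 88.7% on the far side. The median difference within an element was -17.6 points, and the gene side was lower in 258 of them (78.7%). It was lower by at least 20 points in 156 and higher by as much in 11. FLM had 47.4% against 88.6% (median difference -24.3, lower in 265 of 334), untreated 47.7% against 90.7% (-21.1, 214 of 281) and treated 45.6% against 92.2% (-24.7, 233 of 304). All 4 libraries thus had the same direction, although they measure the same elements and are not independent on that account.

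With distance from the gene the difference became small. At 1 to 10 kb in FB it was -1.66 points, with the gene side lower in 60.1% of 1419 elements, and beyond 10 kb it was -0.114, with 52.0% of 2028. In CHH the gene side within 1 kb was also lower, at 15.5% against 23.6% (median difference -6.40, lower in 81.6% of 424), and in CHG at 13.9% against 22.0%. Gypsy elements within 1 kb of a gene had 84.7% and 88.6% in FB, with a median difference of -2.93 in 114 elements, of which 24 were lower by at least 20 points on the gene side and 0 higher by as much. The 32 LINE and I elements in that position had -0.793, lower in 16. Requiring a gene within 500 bp gave -23.7 in FB and -31.6 in FLM, and requiring 10 reads per cytosine gave -11.0 in untreated, where 73 elements remained.

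Along 10 equal bins from the gene side, elements within 1 kb of a gene began at 21.6% CG in FB and 13.4% in FLM. The level reached 61.9% and 53.0% in the next bin and 77.7% and 77.8% in the fourth. At the far end it was 60.5% and 59.0%. Averaged over all elements without regard to genes, FB had 48.2% and 47.8% in the outermost bins and 62.0 to 63.4% in the middle bins, and the flanking 1 kb had 34.0 to 42.8%. The gene side of elements near genes was thus below the ends of elements in general. Annotated repeats covered 40.3 to 62.3% of the flanking bases, least next to the element.

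**Figure D2:**
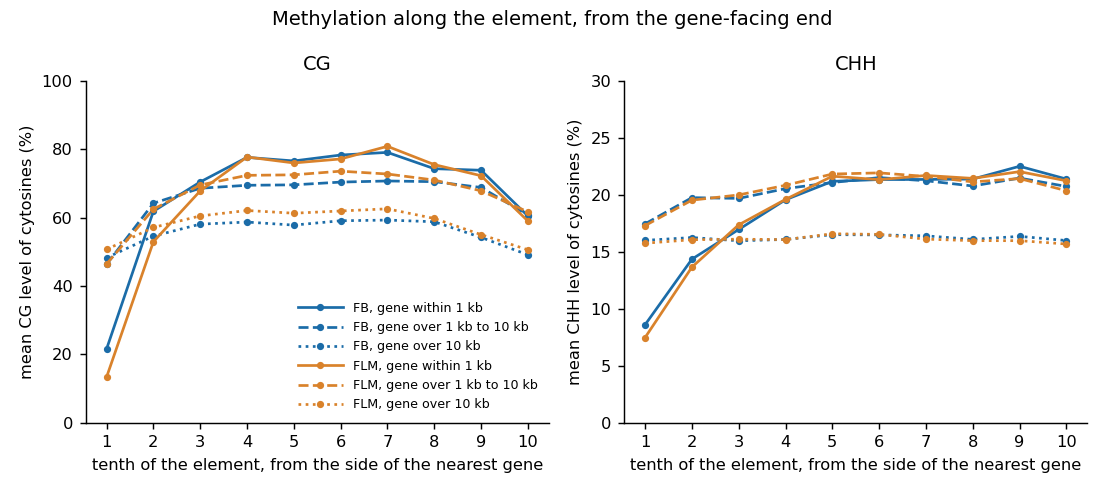
Mean CG (left) and CHH (right) methylation level (%) of cytosines in 10 equal bins from the end facing the nearest gene, by distance to that gene (line style), in FB and FLM (colour). Within 1 kb of a gene the first CG bin is at 21.6% in FB and 13.4% in FLM, and the fourth at 77.7% and 77.8%.

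Elements at an intermediate level were more often mixtures of methylated and unmethylated cytosines than sets of partly methylated ones. Of 1448 elements between 20 and 80% CG in FB with at least 10 measured CG cytosines, 705 (48.7%) had at least 25% of their cytosines below 20% and at least 25% above 80%. Only 14 (0.967%) had more than 50% of their cytosines between 20 and 80%. In the 705 mixed elements the state switched a median of 3 times along a median of 28 cytosines. The strand partners of a CG site are counted as separate cytosines here. FLM had 697 of 1464 elements of the mixed kind, untreated 679 of 1124 and treated 728 of 1216.

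Flanks followed the state of the element. Around elements above 80% CG in FB, the level was 54.2 to 55.9% at 1 kb and 73.6 to 76.1% in the adjoining 100 bp. Around elements below 10% it was 6.46 to 7.97% at 1 kb and 4.55 to 4.95% next to them. The flanks were not used in sorting the elements.

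Base composition went with the level. In FB, elements below 10% CG had a median GC content of 43.4% and a CpG observed-over-expected ratio of 0.627. Those at 10 to 80% had 39.5% and 0.374, and those above 80% had 38.4% and 0.315. The order was the same in FLM, at 43.3%, 39.7% and 38.2% GC. Over 4967 elements the Spearman correlation of the FB level was -0.327 with the CpG ratio and -0.338 with GC. Elements below 10% were shorter, with a median of 783 bp against 1194 bp above 80%. Bisulfite read depth moved in the same direction. Relative to the library mean, it had a median of 1.22 below 10% CG and 0.745 above 80% in FB, and 1.02 and 0.785 in untreated. The Spearman correlation of level and depth was -0.519 in FB, -0.464 in FLM and -0.180 in untreated. GC content counted only cytosines with a read in some library, so unread cytosines lower it. The part of read depth and of composition in the level was not tested, nor was the part of unread cytosines in GC.

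Copies of a family often differed in state. Among the 260 families with at least 5 elements, 127 had a median above 80% in FB, 105 between 10 and 80%, and 28 below 10%. In 137 of them (52.7%) at least 1 copy was below 10% and another above 80%, and in FLM in 136. Among the 179 families with at least 10 elements the number was 119 (66.5%). Copies of a family share their sequence and are not independent.

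The largest families were methylated in most copies. P114.101-MAP18, a Tc1/Mariner family of 132 elements, had an FB median of 75.7%, with 7 copies below 10% and 52 above 80% of 121 measured (family names are as in the annotation, without their common prefix Tmel-B-). G10882-MAP5 (118 elements) had 87.7%, G3445-MAP5 (78) 82.1%, R260-MAP5 (75) 90.0%, R219-MAP8 (59) 83.9%, G11093-MAP3 (57) 89.3%, G3026-MAP9 (56) 86.2% and G11120-MAP5 (55) 80.5%, all of Tc1/Mariner. R260-MAP5, R219-MAP8, G11093-MAP3 and G11120-MAP5 had no copy below 10% in FB. G3102-MAP18 (80) was lower, at 60.5% in FB and 49.9% in FLM, with 11 and 15 copies below 10%. G4599-MAP4, a PiggyBac family of 56, had 84.8% in FB and 80.1% in FLM.

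The 28 families with a median below 10% were 13 of class TIR, 10 of Tc1/Mariner and 5 of hAT. They held 427 elements, and 341 of the 754 elements below 10% in FB (45.2%). In 8 of them every measured copy was below 10%. R539-MAP12 (TIR) had all of its 41 copies below 10% in FB, from 0 to 4.85%, and 40 of 41 in FLM, where 1 copy had 74.8%. R565-MAP10 (TIR) had all 20, from 0.201 to 1.32% in FB and at most 3.29% in FLM. R529-MAP11 (Tc1/Mariner) had 43 of 47 below 10% in FB and in FLM. P64.171-MAP5 and R752-MAP3, also of Tc1/Mariner, had a median below 10% in FB alone among the well-covered libraries. R752-MAP3, with 5 copies, had 9.77% (FB), 25.2% (FLM), 43.7% (untreated) and 40.9% (treated). The medians of P64.171-MAP5 were 6.06% (FB), 75.9% (FLM), 64.0% (untreated) and 73.2% (treated). Of its 14 copies, 8 were below 10% in FB, and 6 were in FLM, in untreated and in treated. Above 80% were 4, 5, 5 and 6, so its medians moved while few copies changed state. Both families were singled out after their values were seen.

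The 3 longest elements all belonged to R529-MAP11. The longest, 14981 bp on scaffold 114 (20871 to 35851 of the v1.0 assembly, which holds for all positions here), had a CG level of 18.1% (FB), 18.9% (FLM), 28.9% (untreated) and 28.3% (treated). The next, 12986 bp on scaffold 266 (18564 to 31549), had 8.18%, 8.45%, 12.7% and 12.5%. The third, 9295 bp on scaffold 144 (290995 to 300289), had 31.8%, 31.1%, 46.4% and 53.3%. None of these 3 elements was above 80% in FB, FLM, untreated or treated. All 3 were above the FB median of their family, 0.507%, whose elements had a median length of 648 bp.

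Most elements kept their state in all libraries. Of 4745 elements measured in FB, FLM, untreated and treated, 1747 were above 80% in all of them, 613 below 10% in all and 913 between in all. Below 10% in FB alone were 94, and below 10% in the 3 mycelia but not in FB were 55. Only 14 were below 10% in FB and above 80% in FLM, and 3 the reverse. The Spearman correlation of CG levels over elements was 0.779 between FB and FLM, 0.880 between untreated and FLM, and 0.947 between treated and untreated.

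Between FB and FLM the CG levels differed in both directions. Over 4953 elements the median of FB minus FLM on common cytosines was 0.349 points. FB was higher by at least 20 points in 252 elements (5.09%, against 3.53% of all classified TEs), and FLM in 334 (6.74%, against 5.41%). Both shares were above those of all TEs, which include these elements. They were below those of DNA transposons up to 500 bp, at 6.81% and 9.29%. Gypsy elements longer than 500 bp had 1.53% and 2.41%, and LINE and I elements of that length 1.88% and 3.92%. The balance turned with the threshold: at 10 points 732 elements were higher in FB and 710 in FLM. Shares over all classified TEs at 10 points are not given here. In the 252 elements higher in FB, the medians were 79.4% (FB), 48.5% (FLM), 49.5% (untreated) and 48.4% (treated). In the 334 higher in FLM, they were 41.0% (FB), 83.4% (FLM), 83.9% (untreated) and 83.7% (treated). Untreated liquid mycelium was thus close to agar mycelium at these elements. It was nearer to FLM than to FB in 187 of 234 of the former and in 304 of 319 of the latter, though FLM enters both the choice and the distance. ECM medians were 45.1% in the former and 33.0% in the latter.

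Outside CG few elements passed 10 points. The median of FB minus FLM in CHG was 0.946 points, with FB higher in 68.1% of 5143 elements, against 1.29 points and 73.0% over all TEs. For CHG, 120 elements were higher in FB by at least 10 points (2.33%, against 2.82% of all TEs) and 82 in FLM (1.59%, against 1.24%). For CHH there were 45 (0.874%, against 1.02%) and 96 (1.86%, against 1.27%). Untreated and FLM, of the same strain, differed by 20 points in CG in 69 elements higher in untreated (1.45%, against 1.4%) and in 82 higher in FLM (1.72%, against 1.14%). ECM was lower than FLM by 20 points in 922 of 3894 elements (23.7%, against 11.5%) and higher in 153 (3.93%, against 3.4%), at the depth given above.

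**Figure D3:**
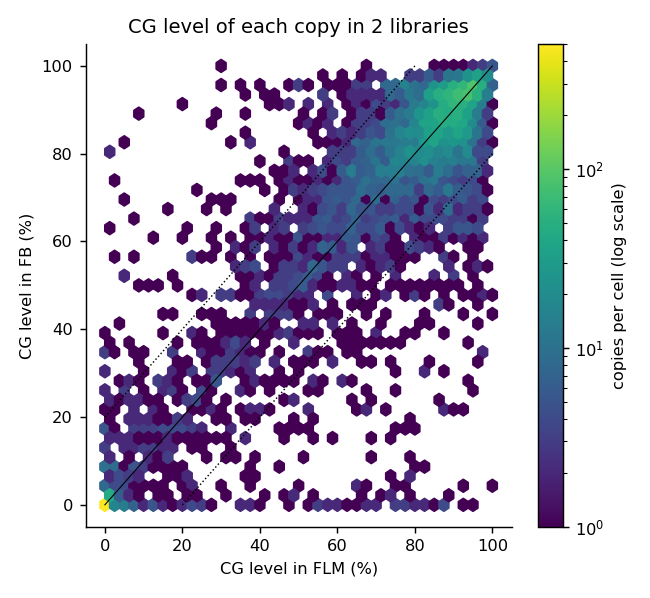
CG methylation level (%) in FB (vertical axis) against FLM (horizontal axis); the colour gives the number of elements per cell on a log scale, the solid line equal levels and the dotted lines a difference of 20 points. On common cytosines 252 elements are higher in FB by that much and 334 in FLM.

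Single elements were below 10% CG in some of these libraries and above 75% in others. P1.187-MAP20 (Tc1/Mariner, scaffold 1, 1979583 to 1980407) had a CG level of 88.5% (FB), 8.71% (FLM), 5.56% (untreated) and 7.46% (treated). R859-MAP5 (hAT, scaffold 85, 54807 to 55750) had 80.02% in FB, 1.16% in FLM and 0 in both liquid cultures. R1361-MAP4 (Mutator, scaffold 64, 475653 to 476333, on a scaffold with no annotated gene) had 79.4% (FB), 0.969% (FLM), 0 (untreated) and 0.435% (treated), with CHH at 22.3% in FB against 0.469% in FLM. In these 3 elements the fruitbody stood alone against the mycelia, and none had an RNA read in any library.

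The reverse was found for R333-MAP6 (Tc1/Mariner, scaffold 58, 298211 to 298721), with 0.513% (FB), 91.4% (FLM), 88.3% (untreated) and 76.4% (treated). G6464-MAP4 (Tc1/Mariner, scaffold 156, 59117 to 60003) had 0.280%, 87.9%, 86.9% and 85.8%. R147-MAP20 (hAT, scaffold 56, 46368 to 46937) had 1.14%, 88.3%, 97.2% and 94.3%. Relative read depth in FLM over FB was 0.849, 0.675 and 0.687 for these 3, below the median of 0.920 over 3291 elements with at least 20 listed CG cytosines.

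Some elements differed between FB and FLM in how many reads they drew. G10302-MAP4 (Tc1/Mariner, scaffold 3, 1603942 to 1605201) had a relative depth of 0.0437 in FB and 0.973 in FLM, a ratio of 22.3. G5240-MAP3 (PIF-Harbinger, scaffold 104, 137468 to 140850) had a ratio of 17.8 and G3675-MAP4 (TIR, scaffold 95, 403081 to 404171) of 11.2. The last 2 had 4 CG cytosines each left for the FB level. At the other end, a second copy of R333-MAP6 (scaffold 77, 113636 to 114186) had a ratio of 0.358, and its CG level was 0.993% (FB), 87.0% (FLM), 96.8% (untreated) and 98.3% (treated). R85-MAP12 (hAT, scaffold 1, 2095369 to 2098328) had 0.407, with 9.77% in FB and 79.7% in FLM. G11050-MAP4 (Tc1/Mariner, scaffold 119, 332470 to 333399) had 0.420, with 61.2% and 88.4%. Whether depth reflects copy number or alignment was not tested.

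After 5-azacytidine, most elements had lower CHG and CHH levels, while CG levels lay close to those without it. The median of treated minus untreated was -0.018 points in CG, -2.47 in CHG and -3.14 in CHH. CHH was lower in 87.1% of 5146 elements and CHG in 77.7% of 5096. By at least 10 points, 213 elements were lower in CHG (4.18%, against 5.04% of all TEs) and 12 higher (0.235%, against 0.521%), and in CHH 67 were lower (1.30%, against 2.67%) and 0 higher (against 0.19%). With at least 10 reads per cytosine the CHH count was 333 of 4640 (7.18%), against 6.33% of all TEs, so that the order of the shares turned with the read minimum. In CG, 2 elements were higher by 20 points (0.0423%, against 0.0419%) and 0 lower (against 0.0461%). Gypsy elements had a median of -3.57 in CHH and LINE and I elements -3.67.

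The difference was larger where the level was higher. For CHH levels in FLM of 10 to 20%, 20 to 30% and over 30%, the median differences were -3.03, -4.16 and -4.86 points. The ratio of treated over untreated was 0.841, 0.841 and 0.850 in these groups, which FLM sorted independently of the liquid cultures. Below 10% the difference was -0.0971, lower in 61.1% of 992 elements, and the ratio 0.875. For CHG it lay between 0.820 and 0.840 in all groups. By following bases, the median difference was -4.25 for CAH (lower in 84.6%), -3.06 for CCH and -1.53 for CTH, the order of their levels. It was -2.91 for CAG, -0.926 for CCG and -1.55 for CTG. The untreated median level was higher for CCG than for CTG, at 14.5% against 11.9%, so CCG and CTG did not follow that order. Helitrons had -4.79 in CHG and -4.59 in CHH, Tc1/Mariner -2.61 and -3.28, and the less methylated hAT -1.33 and -1.28.

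**Figure D4:**
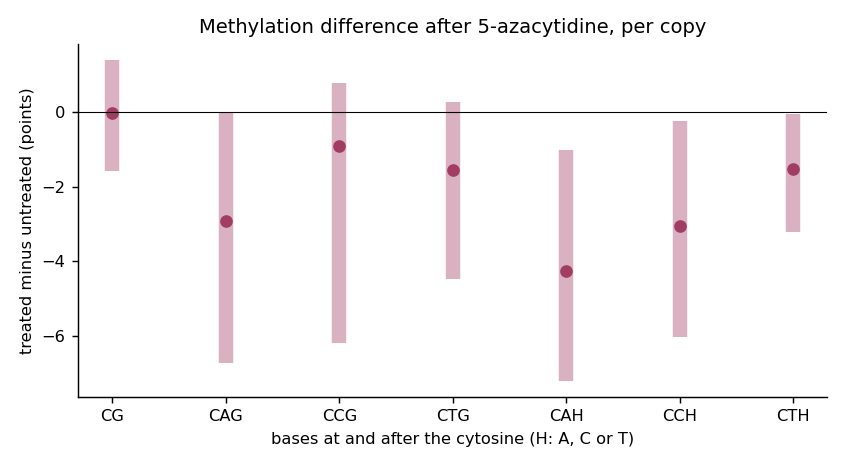
Treated minus untreated methylation level (percentage points) per element by the bases at and after the cytosine (points: medians; bars: the middle 50% of elements). The median is -0.018 at CG, -4.25 at CAH and -1.53 at CTH.

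In CG the elements farthest from 0 differed by less than 20 points where at least 10 common cytosines were compared. R465-MAP6 (TIR, scaffold 271, 87849 to 88853) was higher in treated by 18.8 points over 10 cytosines, R690-MAP3 (TIR, scaffold 79, 264073 to 265046) by 14.4 over 10 and R1134-MAP3 (Tc1/Mariner, scaffold 53, 212100 to 213145) by 11.3 over 20. Another copy of R1134-MAP3 (scaffold 312, 10593 to 11189) differed by -13.1 over 10, R219-MAP8 (scaffold 203, 165561 to 166849) by -13.0 over 11 and R1279-MAP5 (scaffold 36, 313625 to 314277) by -12.9 over 13. These rest on few cytosines each.

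In CHH the extremes were G7890-MAP6 (scaffold 12, 686246 to 686817) with 9.86 points over 41 common cytosines, the Helitron G5761-MAP7 (scaffold 23, 216175 to 216684) with 9.33 over 23, and G10035-MAP3 (scaffold 7, 47017 to 47548) with 7.51 over 10. The Helitron turned to -1.22 with a minimum of 1 read and to -3.16 with 10, and with a minimum of 1 read G7890-MAP6 had 1.56 and G10035-MAP3 4.69. At the low end, G8178-MAP3 (TIR, scaffold 93, 59169 to 59951) had -26.0 over 21, R636-MAP4 (scaffold 58, 230673 to 231360) -20.9 over 29 and G10546-MAP3 (scaffold 108, 95695 to 96957) -18.5 over 11, and R636-MAP4 had -1.47 with a minimum of 1 read. Relative read depth in untreated was 0.141 to 0.488 in these 6 elements.

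Few of the elements had RNA. In all, 4194 of 5166 had no read in any of the 4 libraries. At least 10 reads were counted on 96 elements in FB (1.86%, against 1.53% of all classified TEs), 73 in FLM (1.41%, against 1.47%), 108 in untreated (2.09%, against 1.79%) and 126 in treated (2.44%, against 1.9%). RPKM, the authors' read count scaled to element length and library size, was above 1 for 30 elements in FB (0.581%, against 0.858%) and 25 in FLM (0.484%, against 0.872%), 17 of them in both. The read total behind the RPKM, worked out from counts and lengths, was 74109065 in FB and 63742213 in FLM, and the study's methods state these totals the other way round. With the totals exchanged, 32 elements in FB and 24 in FLM were above 1. Whether the totals or the library names are exchanged was not tested, and FB and FLM are used here as the column names give them. For Gypsy elements longer than 500 bp the share with 10 reads was 0.411 to 0.568%. Only reads with a unique alignment were counted, so identical copies are under-counted.

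The RNA was concentrated in a few places. The 10 elements with most reads in a library held 55.1 to 62.6% of the reads on the elements. In any library, 178 elements had at least 10 reads, 41 in all 4, from 81 families and 112 scaffolds. Of the 178, 10 overlapped a gene and a further 41 lay within 1 kb of one. Over all 5166 elements these counts were 48 and 427, so elements with reads lay at or near genes more often. They were 136 of Tc1/Mariner (3.74% of that class), 19 of TIR (2.13%), 8 of PiggyBac, 6 of hAT, 4 of Mutator (6.35%), 4 of PIF-Harbinger and the MITE. No Helitron had a read.

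Most elements with at least 10 RNA reads had a CG level below 10%, and those with fewer reads were spread over low and high levels. In FB the median CG level was 81.5% over 4576 elements without a read, 28.0% over 297 with fewer than 10 and 0.746% over 94 with at least 10, of which 70 (74.5%) were below 10%. FLM had 81.9%, 26.5% and 0.348%, untreated 84.8%, 47.0% and 0.363%, and treated 85.8%, 35.5% and 0.430%. Of the elements with RPKM above 1, 28 of 30 were below 10% in FB and 25 of 25 in FLM. CHH went the same way, with 20.5%, 11.3% and 0.707% in FB. The converse did not hold. Of the 754 elements below 10% CG in FB, 405 (53.7%) had no read in any library and 117 (15.5%) had at least 10 in at least 1.

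Counting intervals here cover counting error only. The element with most reads was a Mutator, G5064-MAP10 on scaffold 142 (15922 to 16829), 908 bp long and 81408 bp from the nearest gene. It had 100 reads (FB), 991 (FLM), 3792 (untreated) and 3237 (treated), with exact Poisson 95% intervals of 81.4 to 122 and 3672 to 3915 for the lowest and the highest. Its CG level was 10.0% (FB), 9.88% (FLM), 5.91% (untreated) and 7.35% (treated). Another copy on scaffold 167 (118731 to 119574) had 703, 706, 835 and 958 reads, about the same in all 4 libraries, and a CG level of 0.425 to 0.901%. In this family of 27, 18 copies were above 80% CG in FB and 21 had no read in any library.

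R1233-MAP4 (Tc1/Mariner, scaffold 83, 72837 to 74884, 24629 bp from a gene) had nearly all of its reads in the liquid cultures. It had 5 (FB), 3 (FLM), 2854 (untreated) and 798 (treated), with Poisson intervals of 0.619 to 8.77 for FLM and 2750 to 2961 for untreated. Relative to the reads on genes, treated was 3.47-fold below untreated. Its CG level was 0.367 to 0.650% in FB, FLM, untreated and treated, below 1% where RNA was high and where it was nearly absent.

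R680-MAP3 (Tc1/Mariner, scaffold 16, 427350 to 428652) was highest in FB, with 1541 reads (FB), 668 (FLM), 178 (untreated) and 359 (treated). G3961-MAP4 (Tc1/Mariner, scaffold 25, 161855 to 164039), 96 bp from a gene, had 870, 237, 293 and 391. R565-MAP10 (TIR, scaffold 71, 475614 to 476275) had 607, 81, 180 and 251, and R1726-MAP3 (Tc1/Mariner, scaffold 34, 471186 to 471741) 566, 77, 185 and 207. In all 4 elements FB was highest, and their CG levels were at most 3.20% in FB, FLM, untreated and treated.

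Of the top 10, 3 overlapped an annotated gene, so that their reads cannot be told from those of the gene. R38-MAP20 (scaffold 8, 947667 to 948530) shared 499 bp with a gene and had 645 reads (FB), 1209 (FLM), 657 (untreated) and 737 (treated). R529-MAP11 (scaffold 8, 410160 to 410719) shared 178 bp and had 1548, 21, 33 and 18. R826-MAP3 (scaffold 120, 251204 to 252303) lay within a gene over its 1100 bp and had 1086, 192, 57 and 149. All 3 had CG levels below 1% in FB, FLM, untreated and treated.

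**Figure D5:**
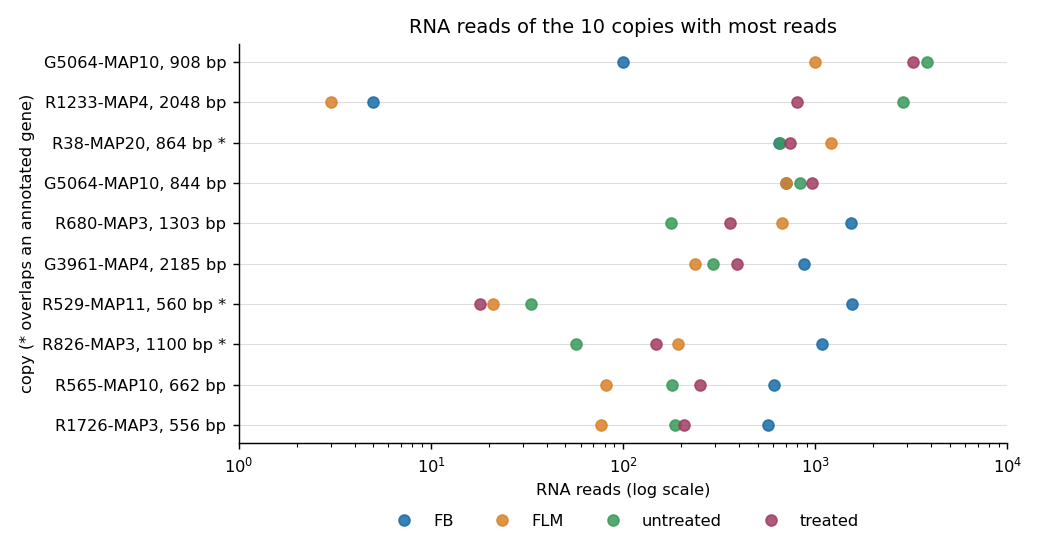
RNA reads (log axis) in FB, FLM, untreated and treated of the 10 elements with most reads, named by family and length in bp, with an asterisk at elements that overlap an annotated gene. The Mutator G5064-MAP10 of 908 bp and R1233-MAP4 are highest in untreated, and 6 of the other 8 are highest in FB.

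Reads on the second copy of R333-MAP6 named above went with its methylation. It had 241 reads in FB (Poisson interval 212 to 273) and 0 in FLM, untreated and treated, at least 81.8-fold higher in FB than in FLM against a floor of 3 counts per library, and was below 1% CG in FB only.

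Some families low in CG had several copies with RNA, and others had few or none. R529-MAP11 had 14 of 47 copies with at least 10 reads in a library, R1726-MAP3 12 of 31, and R565-MAP10 7 of 20. R539-MAP12 had 2 of 41, R620-MAP3 2 of 33, G673-MAP20 0 of 28 and G4714-MAP7 0 of 23. Over all 5166 elements this share was 3.45%. The families R680-MAP3 (4 of 16), R38-MAP20 (4 of 48), G3961-MAP4 (8 of 29) and R826-MAP3 (1 of 22) had FB medians of 60.2%, 76.7%, 73.8% and 86.5% and 4, 8, 6 and 3 copies below 10%, in the same order. Of the 28 families with a median below 10% in FB, 11 had a copy with at least 10 reads.

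Levels of RNA differed between libraries in both directions. Among 136 elements with at least 10 reads over both libraries, the median log2 ratio of FB over FLM was 1.22. FB was at least 2-fold higher for 75 (55.1%, against 39.6% of all TEs tested) and lower for 35 (25.7%, against 32.7%). Untreated was at least 2-fold above FLM for 75 of 134 elements (56.0%, against 45.6%) and below for 15 (11.2%, against 17.9%), with a median of 1.31, which was 0.50 once centred on the median gene. Untreated against FB had 64 of 167 higher (38.3%, against 41.7%) and 62 lower (37.1%, against 32.9%). FB, FLM and untreated are shared between these comparisons.

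Treated against untreated differed less. Of 170 elements 36 were at least 2-fold higher in treated (21.2%, against 15.7%) and 21 lower (12.4%, against 10.6%), with a median log2 ratio of 0.21. The number of elements with a read was 611 in treated (11.8%) and 576 in untreated (11.1%), while over all TEs it was lower in treated, at 7.14% against 8.44%.

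RNA and CG differences of the same elements were set side by side. Of all elements measured in CG in both libraries, 4367 of 4953 lay within 20 points. Of the elements compared in RNA between FB and FLM, 118 lay within 20 points in CG, of which 61 were 2-fold higher in FB and 32 in FLM. Among 88 elements below 10% in both libraries, 43 were 2-fold higher in FB and 23 in FLM. Of 9 elements with a CG level higher in FLM by 20 points, 8 had more RNA in FB. Of 7 with a level higher in FB, 4 had more RNA in FB and 2 in FLM.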

How the data were processed

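Bisulfite-treated DNA of 5 conditions and RNA of 4 were analysed, 1 library each. The authors aligned the bisulfite reads with BS Seeker (version not given in the sources used here) to the v1.0 assembly and deposited counts of methylated and of all reads per cytosine. For RNA, the authors aligned reads with TopHat2 2.0.4 and counted unique alignments lying entirely in a single gene or TE with HTSeq 0.5.4p3. The deposited RPKM values were used for FB and FLM only; RPKM of the 5-azacytidine experiment and the authors' columns of comparisons (fold changes and p-values) were not used. Unique alignment under-counts near-identical copies, and aligned depth differs between elements.

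Levels were means of per-cytosine percentages over cytosines with at least 4 reads (1 in ECM) in elements with at least 4 such cytosines. Differences used common cytosines and were called at 20 points in CG and 10 in CHG and CHH. RNA folds were relative to the reads on genes, for elements with at least 10 reads over both libraries, and a library at 0 was set to 3 counts. Relative depth was reads per cytosine of an element over the library mean. GC content and the CpG ratio were computed from the listed cytosines. Intervals were exact: binomial order statistics for medians, Clopper-Pearson for shares and Poisson for reads. Conditions were compared by description only, since none had a second library.

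Single elements were named by rule: the 10 largest families; the 10 elements with most RNA reads; the 3 with the largest difference in each direction in CG (FB and FLM, treated and untreated) and CHH (treated and untreated) over at least 10 common cytosines; the 3 longest; and the 3 highest and lowest in FLM over FB depth. The members and lists were chosen with earlier results of these data known. Alternatives were read minimums of 1 and 10, pooled reads, 10 cytosines, elements over 1000 bp, other call thresholds, RPKM above 0.5 or 2, and centred RNA ratios. The level calculation was tested on simulated data. Python 3.11.15 was used with numpy 2.4.6, scipy 1.17.1, pandas 2.3.3 and matplotlib 3.10.9.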

Additional observations from a re-analysis of the deposited data

How the results depend on the processing

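Signed differences kept their sign under the alternatives run, apart from 3 results. One was the CHH difference of the Helitron G5761-MAP7, which turned to -1.22 with a minimum of 1 read and to -3.16 with 10. The others were medians close to 0: treated minus untreated in CG was 0 with a minimum of 1 or 10 reads, and the untreated over FB log2 RNA ratio was 0.14 with at least 30 reads and 0.06 without elements that overlap a gene. With a minimum of 10 reads (2 in ECM), the median CG level was 78.4% (FB), 78.6% (FLM), 28.8% (ECM), 76.9% (untreated) and 81.3% (treated). With pooled reads it was 78.2% in FB and 78.8% in FLM, and with at least 10 cytosines 79.0% (FB), 79.2% (FLM), 50% (ECM), 80.9% (untreated) and 81.9% (treated). Over elements above 1000 bp it was 81.0% in FB, 66.7% in ECM, 83.3% in untreated and 83.8% in treated. The share of elements below 10% CG became 16.3% in FB with at least 10 cytosines, and 10.2% in FB and 9.61% in FLM above 1000 bp. The treated minus untreated median was -2.17 in CHG with 10 reads, and in CHH -2.99 with 1 read, -2.82 with 10 reads and -3.03 with pooled reads. Call thresholds of 10 points in CG and 5 elsewhere gave 732 elements higher in FB, 710 higher in FLM, 1293 lower in treated in CHG and 1261 in CHH, and 10 reads gave 333 lower in CHH. The FB and FLM counts in CG thus turned in order with the threshold, as did the median CG levels of FB and untreated with 10 reads. Shares over all TEs at the lower call thresholds are not given here. RPKM above 2 was reached by 19 elements in FB and 16 in FLM. The untreated over FLM log2 ratio was 0.50 when centred on the median gene. Elements without RNA reads had 80.2% CG in FB and 80.4% in FLM at 10 reads. Elements up to 1500 bp differed by -6.81 points from Gypsy and by -5.92 from LINE and I elements. The share of families with both states was 66.5% among those with at least 10 elements. The gene-side difference was -23.7 (FB), -31.6 (FLM), -27.4 (untreated) and -30.7 (treated) with a gene within 500 bp, and -11.0 in untreated with 10 reads. The cause of these shifts was not tested. The gene-side alternatives, the groups by RNA reads, the exchange of RPKM totals, the CHH count over all TEs at 10 reads and the omission of neighbouring repeats were chosen after seeing the data.

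No paired analysis was possible because each condition had 1 library per assay. The depth of ECM limits its levels to few cytosines per element, and host cells add reads that are not truffle. Without replicates, differences between conditions hold for these libraries only.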
